A study of Mus musculus with 2 samples.

Results

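Dll1, Dll4, Jag1, Notch1, Notch3, Nrarp, Hes1, Hey1, Hey2 and Heyl were followed as a set of ligands, receptors and target genes of the Notch pathway. Every non-control probe carrying one of these names in the scanner files was taken, which gave 10 genes and 12 probes of 39429 probes on the array. After probes near background were left out, 11 of the 12 probes remained, all 10 genes were measured, and they stood among 22316 fitted features. The study cultured ureters of wildtype NMRI mouse embryos of both sexes, taken at E13.75, for 18 h with 10 µg/ml NOGGIN, a secreted protein that binds BMP ligands and keeps them from their receptors. The control ureters, of the same strain, genotype and stage, were cultured as long without it. Total RNA of each pair was hybridised to 1 two-colour array, with a dye swap between the 2 arrays, so there are 2 NOGGIN samples and 2 control samples. By the labels NOGGIN RNA was green and control RNA red on array 1, and the colours were the other way round on array 2.

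The labels do not say how many ureters each sample holds or whether the 2 pairs came from separate litters. The p-values therefore measure only the spread between these samples, which the moderated limma test pools in part over all features. Whole explants were used, and in such RNA fewer cells of a type and less RNA per cell cannot be told apart. Markers of the expected tissue were present, with 13 of 13 measured urothelial genes, 10 of 10 ureteric mesenchyme genes and 10 of 11 smooth muscle genes above background in all 4 channels. Between 65.3% and 76.9% of the probes were above background in a channel.

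The direction of every ratio below rests on the dye labels and is not settled. By those labels Id1, Id2 and Id3, which BMP signalling is known to induce, were higher in the NOGGIN-labelled channel on both arrays. Their log2 ratios were 2.21 and 2.08 for Id1, 2.41 and 2.77 for Id2, and 1.43 and 1.47 for Id3. These 3 belong to a list of 11 BMP target genes, all measured. Every gene of that list had a positive ratio on array 1 and on array 2. The size passed 1.5-fold on each array for 9 of the 11, and 2 fell short. The median of their mean log2 ratios was 1.31. The authors' deposited table has the opposite sign, because its values are control over NOGGIN by the dye labels, while the sample titles set NOGGIN against control. All ratios here have the NOGGIN-labelled channel on top. Were the dye labels the wrong way round, each ratio would keep its size and turn its sign.

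Notch receptors are membrane proteins that are cleaved when a Delta or Jagged ligand on a neighbouring cell binds them, and the freed intracellular domain enters the nucleus and switches on target genes with the DNA-binding protein RBPJ. Among those targets are the Hes and Hey transcriptional repressors and Nrarp, which limits the signal. In the developing ureter, Notch signalling in the mesenchyme is known to favour smooth muscle differentiation, and in blood vessels it takes part in artery and mural cell formation.

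A gene was counted as different where it was at least 1.5-fold apart (0.585 on the log2 scale) in the same direction on both arrays. Dll1 was the 1 Notch gene of 10 below that threshold in the NOGGIN-labelled channel, and Nrarp the 1 gene of 10 above it. Over all features, 1.25% passed the rule as lower and 0.941% as higher. The other 8 genes did not pass. In limma, whose moderated test has 5.34 degrees of freedom here, no feature reached an adjusted p under 0.05. The lowest adjusted p among all features was 0.0735, 0.161% of the features were at or under 0.1, and none of the 10 genes was among them. At an unadjusted limma p under 0.05, 3 of the 10 genes passed, namely Dll1, Nrarp and Hey1, against 6.04% of all features.

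**Figure D1:**
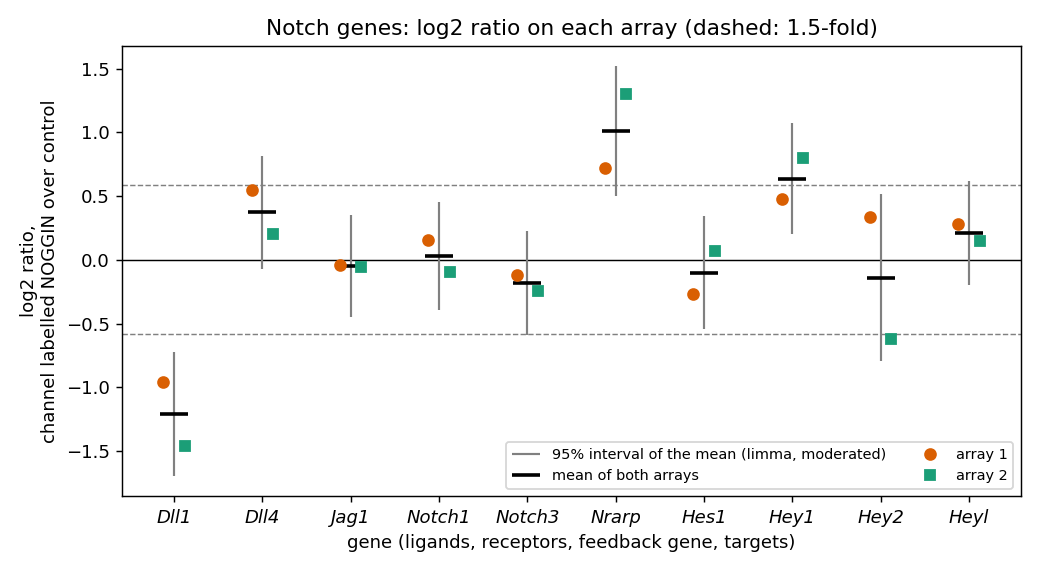
Log2 ratio (NOGGIN-labelled channel over control-labelled channel) of the 10 Notch genes on array 1 and array 2, with the mean and the moderated 95% interval of the limma fit; dashed lines mark 1.5-fold. Dll1 lies beyond the lower line and Nrarp beyond the upper line on both arrays, and on array 2 alone Hey1 is beyond the upper and Hey2 beyond the lower line.

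The ligand Dll1, the Delta ligand with roles in somites, neurons and nephrons, had the largest difference of the set. It was read by this probe, whose first 30 bases are shown because the finding on Dll1 rests on it alone:
Dll1 probe, chr17:15504623-15504682, minus strand, mm9: gattactatgagccagtctttccttgaact
Its normalised log2 intensity was 9.75 and 9.57 in the NOGGIN-labelled channel on arrays 1 and 2, against 10.71 and 11.03 in the control-labelled channel. Both NOGGIN values lay below both control values. The log2 ratios were -0.96 and -1.46, with a mean of -1.21 ± 0.35 (SD, n = 2 arrays), which is a 2.31-fold lower level. The moderated 95% interval ran from -1.70 to -0.73, and the limma p was 0.00117 before and 0.162 after Benjamini-Hochberg adjustment over all features. By absolute mean log2 ratio Dll1 ranked at 197 of 22316. All 7 usable spots of the probe were below 0, between -0.96 and -0.95 on array 1 and between -1.69 and -1.19 on array 2.

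A further Dll1 probe gave no reading. Its position is shown because it lies elsewhere in the gene, in another transcript that the file names for it:
Dll1, unused probe, chr17:15513726-15513785, minus strand, mm9: acactatccggaccccaattccccatttcc
It was not well above background in any of the 4 channels, and its log2 intensities of 6.20 and 6.28 in the NOGGIN-labelled channel and of 6.23 and 6.23 in the control-labelled channel were near the floor of the channels, the lowest signal among probes well above background, which was 6.14 to 6.71. No fold is given for it, and it neither repeats nor contradicts the reading of the first probe.

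Dll4, the Delta ligand best known from endothelial cells, had log2 intensities of 9.80 and 9.98 in the NOGGIN-labelled channel, against 9.25 and 9.78 in the control-labelled channel. The NOGGIN values were both above the control values, the lower of them by very little. The log2 ratios were 0.55 and 0.20, with a mean of 0.37 ± 0.25 (SD, n = 2 arrays), an interval from -0.07 to 0.82 and a limma adjusted p of 0.987. Of 7 spots, 6 were above 0 and 1 was below.

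Jag1, the Jagged ligand that the developing urinary tract shares with blood vessels and the inner ear, had 12.52 and 12.47 in the NOGGIN-labelled channel, against 12.55 and 12.53 in the control-labelled channel. These 4 values span less than those of any other gene of the set. The log2 ratios were -0.04 and -0.06, and the mean of -0.05 ± 0.02 (SD, n = 2 arrays) had an interval from -0.45 to 0.35. A difference of 1.5-fold in either direction lies outside that interval, which holds for the loess fit reported. The width of the interval rests mostly on the spread pooled over all features, with 4.34 prior degrees of freedom beside 1 residual degree of the gene. With median centring in place of loess the arrays were further apart, with a mean of -0.09 ± 0.59 (SD, n = 2 arrays). Across the 3 ligands, mean log2 ratios ran from -1.21 to 0.37.

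**Figure D2:**
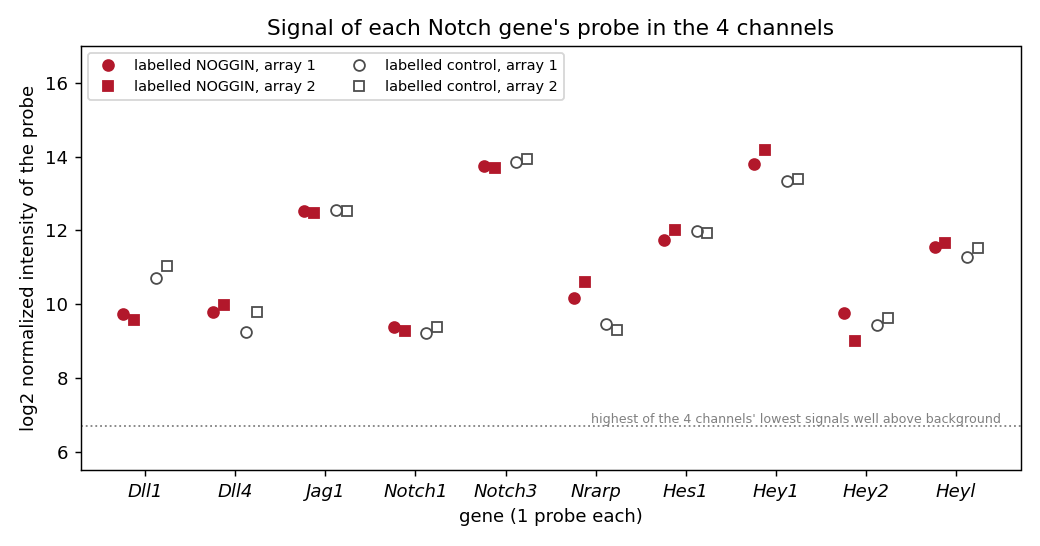
Normalised log2 intensity of each Notch gene in the NOGGIN-labelled channel and in the control-labelled channel on both arrays (filled symbols, NOGGIN; open symbols, control), 1 probe per gene; the dotted line is the highest of the floors of the 4 channels. Both filled symbols lie below the open ones for Dll1 and above them for Nrarp and Hey1, and they straddle the open ones for Hey2; heights of different probes cannot be compared.

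The receptor Notch1 was read by 2 probes within the same transcript, which are shown because they went opposite ways on each array:
Notch1 probe used, chr2:26314630-26314689, minus strand, mm9: ttgcttctttccaaaatcgaaaagaaagaa
Notch1 other probe, chr2:26319440-26319499, minus strand, mm9: tcctgcagtggagggggccttgagacaggc
The brighter probe had log2 intensities of 9.39 and 9.28 in the NOGGIN-labelled channel, against 9.23 and 9.38 in the control-labelled channel. The groups overlapped, and the log2 ratios of 0.16 and -0.10 differed in sign. Their mean was 0.03 ± 0.18 (SD, n = 2 arrays), with an interval from -0.39 to 0.45.

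The dimmer Notch1 probe had log2 ratios of -0.27 and 0.57, with a mean of 0.15 ± 0.59 (SD, n = 2 arrays). Its intensities were 8.19 and 9.09 in the NOGGIN-labelled channel, against 8.47 and 8.52 in the control-labelled channel. Read by dye and not by treatment, each Notch1 probe kept its sign on the 2 arrays. With swapped dyes this follows from the opposite signs by treatment. Red minus green was -0.16 and -0.10 for the brighter probe and 0.27 and 0.57 for the dimmer one.

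Notch3, the receptor of smooth muscle and pericytes in blood vessels, had 13.74 and 13.69 in the NOGGIN-labelled channel, against 13.87 and 13.94 in the control-labelled channel. The NOGGIN values lay below the control values on both arrays. The log2 ratios were small, at -0.12 and -0.25, and the mean of -0.18 ± 0.09 (SD, n = 2 arrays) had an interval from -0.59 to 0.22. The limma p was 0.303 before adjustment, and 7 of 8 spots were below 0.

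Nrarp, whose small ankyrin repeat protein binds the Notch intracellular domain with RBPJ and lowers its activity, had the largest positive ratio of the set. Its probe is shown as the sole reading of the gene:
Nrarp probe, chr2:25038038-25038097, plus strand, mm9: ttttttgaatcttggttatgaacccaattt
The log2 intensity was 10.18 and 10.59 in the NOGGIN-labelled channel, against 9.46 and 9.29 in the control-labelled channel. Both NOGGIN values lay above both control values. The log2 ratios were 0.72 and 1.30, with a mean of 1.01 ± 0.41 (SD, n = 2 arrays), which is a 2.01-fold higher level with 1.64-fold on array 1 and 2.46-fold on array 2. The moderated interval ran from 0.50 to 1.52, and the limma p was 0.00347 before and 0.244 after adjustment. All 8 spots were above 0, between 0.52 and 0.91 on array 1 and between 1.06 and 1.54 on array 2. Nrarp ranked at 313 of 22316 by absolute mean log2 ratio.

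Hey1, a repressor of the Hairy family that is induced by Notch and, in endothelial cells, also by BMP signalling, stood just short of the fold rule. Its probe began with these bases, shown because Hey1 is the gene whose call depends on the processing:
Hey1 probe, chr3:8663432-8663491, minus strand, mm9: gatttgggctctaaaagtattgttttacag
Hey1 had log2 intensities of 13.81 and 14.19 in the NOGGIN-labelled channel, against 13.34 and 13.40 in the control-labelled channel. Both NOGGIN values lay above both control values. The ratios of 0.48 and 0.80 on the log2 scale are 1.39-fold and 1.74-fold, so array 1 fell short of 1.5-fold. The mean was 0.64 ± 0.23 (SD, n = 2 arrays) with an interval from 0.20 to 1.07, and the limma p was 0.0128 before and 0.455 after adjustment. All 7 spots were above 0. With the scanner's processed signals, and with the authors' deposited values, Hey1 passed the fold rule too, and 3 of the 10 genes did. More features of the whole array passed as well, 3.82% in either direction with processed signals and 3.03% with the authors' deposited values.

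Heyl, the Hey family member with expression in vascular smooth muscle, had 11.55 and 11.67 in the NOGGIN-labelled channel, against 11.27 and 11.52 in the control-labelled channel. The direction was the same on both arrays and the size small, with log2 ratios of 0.28 and 0.15 and a mean of 0.21 ± 0.09 (SD, n = 2 arrays; interval -0.19 to 0.62). Of 8 spots, 6 were above 0.

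Hes1, a repressor that many signals besides Notch can induce, had 11.73 and 12.01 in the NOGGIN-labelled channel, against 11.99 and 11.94 in the control-labelled channel. The groups overlapped, and the log2 ratios of -0.27 and 0.07 had opposite signs. The mean was -0.10 ± 0.24 (SD, n = 2 arrays), with an interval from -0.54 to 0.34. Red exceeded green by 0.27 and 0.07 on the 2 arrays.

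Hey2, the Hey family member known from arteries and the heart, differed most between the arrays. Its log2 intensities were 9.77 and 9.01 in the NOGGIN-labelled channel, against 9.44 and 9.62 in the control-labelled channel. The ratio was 0.34 on array 1 and -0.62 on array 2, a mean of -0.14 ± 0.67 (SD, n = 2 arrays) with an interval from -0.80 to 0.52. The spots of an array did not scatter across 0: all 3 on array 1 lay between 0.29 and 0.42, and all 4 on array 2 between -0.77 and -0.41. Green exceeded red on both arrays, with red minus green at -0.34 and -0.62. With swapped dyes, any ratio that turns its sign by treatment keeps it by dye, so this is no separate observation. Opposite signs by treatment occurred in 56.3% of all features. How much of the Hey2, Hes1 and Notch1 ratios belongs to the dye was not tested.

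**Figure D3:**
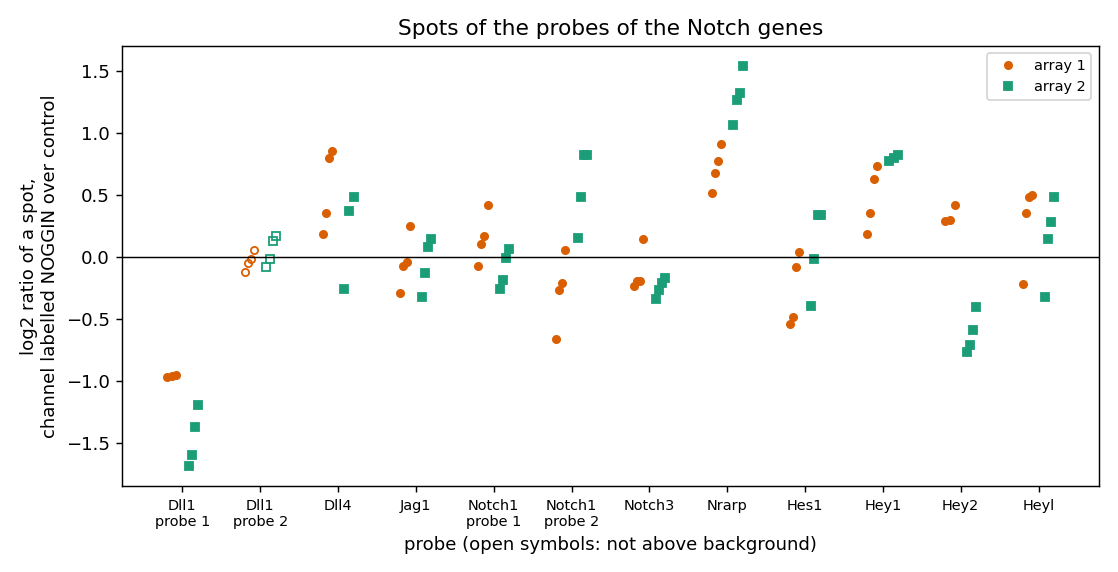
Log2 ratio of every usable spot of the 12 Notch probes, NOGGIN-labelled channel over control-labelled channel, by array; up to 4 spots carry the same probe, and open symbols mark the Dll1 probe not above background. All spots of Nrarp and Hey1 lie above 0 and all of the measured Dll1 probe below, while the spots of Hey2 lie above 0 on array 1 and below 0 on array 2.

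Over the 10 genes, 7 had the same sign on both arrays, 4 of them higher and 3 lower in the NOGGIN-labelled channel, against 43.7% of all features with the same sign. In the same 7 genes the NOGGIN and control values did not overlap. In Dll4 and Jag1 they lay very close, the nearest NOGGIN and control values being 9.80 and 9.78 for Dll4 and 12.52 and 12.53 for Jag1. Both NOGGIN values were above both control values in 4 genes, against 14.3% of all features, and below them in 3 genes, against 17.9%. The median of the 10 mean log2 ratios was -0.01, as it was over all features (-0.01). The median absolute value was 0.198, against 0.102 over all features. The set therefore held ratios in both directions around 0: the ligand Dll1 was lower, while the targets Nrarp and Hey1 had positive ratios and Hes1 had ratios on either side of 0. On array 1 alone, 2 genes passed 1.5-fold (Dll1 and Nrarp), against 4.31% of all features in either direction. On array 2 alone 4 did (Nrarp and Hey1 higher, Dll1 and Hey2 lower), and the share of all features was larger there too, at 11.8%.

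**Figure D4:**
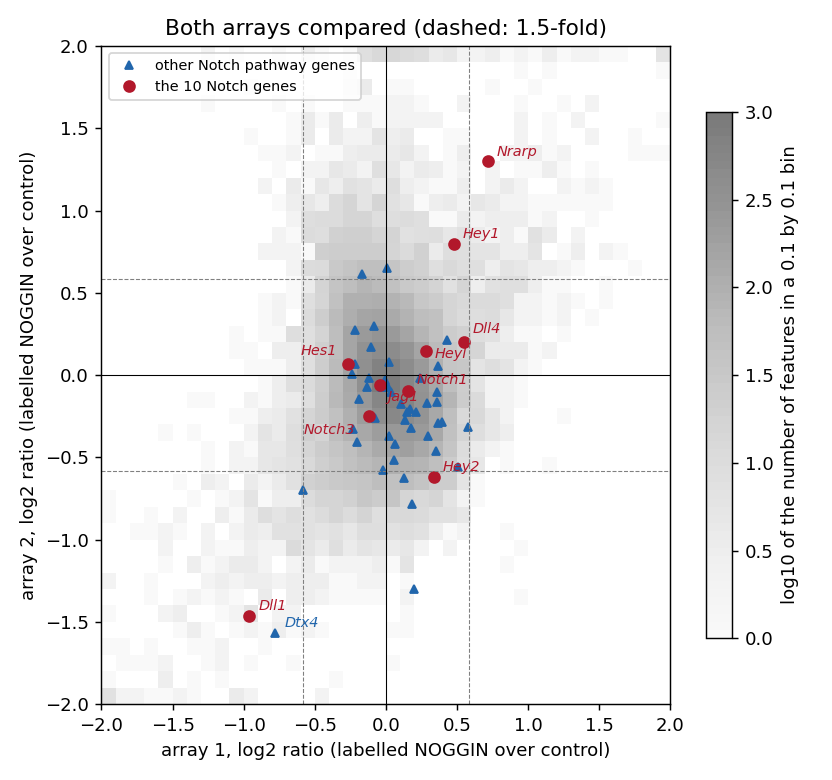
Log2 ratio on array 1 (x axis) against array 2 (y axis), NOGGIN-labelled channel over control-labelled channel; grey shading is the log10 number of the 22316 features per bin, with features beyond 2 in either direction placed in the edge bins, red points are the 10 Notch genes and blue triangles the 45 other pathway genes. Dll1 lies in the lower left, Nrarp and Hey1 in the upper right, and Hey2 and the remaining genes nearer the centre; the correlation of the arrays across features was 0.179.

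A wider list of 48 other genes of the pathway held 45 measured ones. None was higher by the 1.5-fold rule, against 0.941% of all features, 1 was lower, against 1.25%, and 44 passed in neither direction. An unadjusted limma p under 0.05 was reached by 2, both with negative ratios, against 6.04% of all features. The median mean log2 ratio of the 45 was -0.04, against -0.01 over all features. The same sign on both arrays was seen in 15 of 45, 4 positive and 11 negative, against 43.7% of all features. The 1 gene past the rule was Dtx4, an E3 ubiquitin ligase of the Deltex family, which act on Notch receptors. Its log2 ratios were -0.78 and -1.57, with a mean of -1.17 ± 0.56 (SD, n = 2 arrays) and a limma adjusted p of 0.238. Dner, a transmembrane protein with EGF repeats that has been described as a Notch ligand in the nervous system, had -0.58 and -0.70, a mean of -0.64 ± 0.08 and an adjusted p of 0.380, and lay just inside the threshold on array 1, at -0.584 against 0.585 in size.

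Apart from Dtx4, none of these other pathway genes passed the rule, against 0.941% of all features higher and 1.25% lower. RBPJ, the DNA-binding partner of all Notch receptors, is encoded by Rbpj, whose log2 ratios were 0.21 and -0.23. The receptors Notch2 and Notch4 had ratios of opposite sign on the 2 arrays, with means of -0.18 and 0.13. The ligands Jag2 and Dll3 had means of 0.13 and -0.05. For the 5 glycosylation enzymes of the receptors, Lfng among them, means ran from -0.28 to 0.11, and for the 8 measured genes of receptor cleavage from -0.23 to 0.32. The highest mean among the cleavage genes was that of Adam10, the protease that makes the first cut after ligand binding, with 0.43 and 0.21. Numbl, an adaptor of the Numb family that opposes Notch, had -0.20 and -0.41, and Kat2b, an acetyltransferase that joins the nuclear complex, had 0.01 and 0.65. In the Hes family outside the set, the 6 measured genes had means from -0.30 to 0.21. Hes5, a classical Notch target of the nervous system, had 0.51 and -0.56.

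Several of the 10 genes are also used by blood vessels, so vessel markers are given beside them. All 14 endothelial markers were above background in all 4 channels. None passed the 1.5-fold rule, against 0.941% of all features higher and 1.25% lower, and the median log2 ratio was 0.20. On both arrays 8 were positive and 2 negative, where 4558 and 5205 of all 22316 features were. The mean log2 level of the 14 markers was 12.01 and 12.02 in the NOGGIN-labelled channel, against 11.81 and 11.97 in the control-labelled channel. Among them Cldn5, a tight junction protein of endothelium, had ratios of 0.35 and 0.55, and Eng, a co-receptor for BMP ligands, had -0.23 and -0.66. All 8 mural cell markers were above background in all 4 channels and none passed the rule. Their mean log2 level was 11.53 and 11.47 in the NOGGIN-labelled channel, against 11.32 and 11.40 in the control-labelled channel, with a median log2 ratio of 0.16. Of the mural markers, 4 were positive and 2 negative on both arrays, and 2 differed in sign between the arrays, as 56.3% of all features did. The largest mean ratios were those of the pericyte genes Kcnj8, with 0.33 and 0.85, and Rgs5, with 0.27 and 0.78. Cspg4, the NG2 proteoglycan of pericytes, had -0.12 and -0.71, and Pdgfrb, the PDGF receptor of mural cells and other mesenchyme, had 0.21 and -0.67. The mural markers thus had no common direction. The part of endothelial or mural cells in the ratios of the 10 genes was not tested.

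The nephron markers, which could come with kidney tissue left on a ureter, are set beside Dll1 for its role there. Their median log2 ratio was -0.16. Of 9 measured, 2 were lower by the 1.5-fold rule and none higher, against 1.25% and 0.941% of all features. The mean log2 level of the nephron markers was 9.88 and 9.88 in the NOGGIN-labelled channel, against 10.18 and 10.16 in the control-labelled channel. The 8 neural markers had a median of 0.06 and none past the rule. The part of either in the Dll1 ratio was not tested. Smooth muscle markers are genes of the cells whose differentiation Notch is known to favour in the ureter. The median log2 ratio of these markers was -0.64. On both arrays 8 of the 11 were negative and 2 positive, where 5205 and 4558 of all 22316 features were. By the rule 1 of 11 was higher, against 0.941% of all features, and 4 were lower, against 1.25%. The higher gene was Myocd, the transcriptional coactivator of the smooth muscle programme, with 1.17 and 0.94. The lower genes were Tagln, Cnn1, Actg2 and Synpo2, which encode proteins of the contractile apparatus, with mean log2 ratios of -0.98, -0.80, -0.65 and -1.26. The contractile actin gene Acta2, with -1.39 and -0.18, did not pass the rule.

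Promoter sequence of RefSeq (GRCm38.p6, from 250 bases before to 50 after the start) matched 7 of the 10 genes by symbol, with 8 windows because Dll1 has 2 starts. The promoters of Hes1, Hey1 and Heyl were not analysed here. The core letters bound by RBPJ, TGGGAA on either strand, occur in 25.6% of all 32851 promoters and in 1 of the 8 windows, that of Hey2. Both matches are shown, with the motif in capitals, because Hey2 is the gene of the set whose ratio differed most between the arrays:
Hey2, motif from base -207 relative to the start, chr10:30842973-30843002, minus strand, GRCm38.p6: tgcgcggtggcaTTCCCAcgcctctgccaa
Hey2, motif from base -3 relative to the start, chr10:30842769-30842798, minus strand, GRCm38.p6: tgggctgcagcgTGGGAAagaacctccagg
The GC-rich motif of BMP-activated SMAD proteins, GGCGCC, reads the same on both strands and occurs in 11.9% of all promoters. It was found in 2 of the 8 windows, 1 of Dll1 and that of Hey2, and is in capitals here because Dll1 had the largest difference of the set:
Dll1, motif from base -169 relative to the start, chr17:15375975-15376004, minus strand, GRCm38.p6: ttaagggtggcaGGCGCCagcccgggccag
Hey2, motif from base 39 relative to the start, chr10:30842734-30842763, minus strand, GRCm38.p6: accgcgccgccgagggagcGGCGCCtgcag
The motifs do not overlap. These are matches of letters and do not show that a protein binds there.

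In the authors' deposited table, which gives a signed fold of control over NOGGIN by the dye labels, Dll1 was at 1.92 and 3.13 on arrays 1 and 2, Nrarp at -1.77 and -2.43, and Hey1 at -1.54 and -1.76. With their sign turned these have the directions given above. Both come from the same 2 arrays, so this does not settle the direction. Read by the sample titles as NOGGIN over control, the deposited values would put Dll1 higher and Nrarp and Hey1 lower with NOGGIN. In the same authors' deposited table Dll4 was at -1.55 and -1.15 and Hey2 at -1.22 and 1.42, so that Hey2 again differed in sign between the arrays. Hes1, at 1.15 and 1.06, had the same sign on both arrays in the authors' deposited table, unlike in the ratios computed here. Jag1, at -1.07 and 1.11, differed in sign there, also unlike in the ratios computed here.

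**Figure D5:**
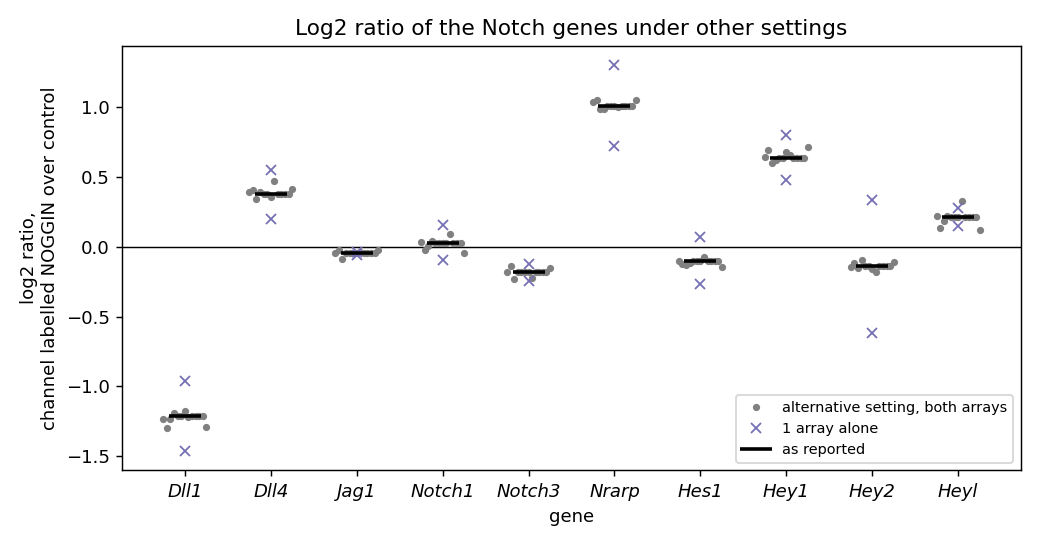
Mean log2 ratio of each Notch gene (NOGGIN-labelled channel over control-labelled channel) under each processing setting and on each array alone. Dll1 stayed at or below -0.96 and Nrarp at or above 0.72 in every setting drawn, while Notch1, Hes1 and Hey2 lie on both sides of 0.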

How the data were processed

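The deposited scanner files hold spot intensity values from Agilent Feature Extraction 10.7.3.1 (per the submitters' processing notes), not normalized, beside processed signals that the scanner software had background-subtracted and dye-normalized, per the file headers. The authors' deposited table holds a score per probe that proved to be a signed linear fold (a ratio), whose correlation with red over green was 0.838 on array 1 and -0.884 on array 2. How that score was normalized is not stated in the sources used. A log10 ratio column of red over green processed signals, deposited in the scanner files per the file headers, gave none of the values above.

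Mean signals were corrected by normexp (offset 50) and normalized by loess within each array, control spots having weight 0, in limma 3.58.1 under R 4.3.3. Control spots and outlier spots (3.48% and 3.37%) were left out, no spot was saturated, and spots were averaged over the 4 per probe. On both arrays, most spots of a kept probe had to be well above background in 1 channel or both, which left 29645 probes, and the brightest kept probe stood for a gene. Names were updated through RefSeq accessions (28328 probes matched). Log2 ratios were fitted with lmFit and eBayes, with the sign turned on array 1, and adjusted by Benjamini-Hochberg over 22316 features. The fit was tested on simulated data. Levels per channel were set between arrays by Aquantile. Positions of probes come from the files, in mm9, for which no annotation of exons or UTRs was used. With 2 arrays their number limits the precision.

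All 10 genes are named, of the other pathway genes those past the 1.5-fold rule and the 5 largest of equal sign, and of the endothelial and mural lists the 2 largest; further pathway genes, Cspg4, Pdgfrb and 4 smooth muscle genes were named after their values were seen. The genes and lists were chosen with earlier results of these data known. The alternatives concerned background, normalization, filters, spot and probe summaries, the variance model, the pairing of channels and leaving out each array. The pairing is by design, since both channels of a ratio share an array.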

Additional observations from a re-analysis of the deposited data

How the results depend on the processing

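Dll1 and Nrarp kept their direction and passed 1.5-fold in every setting run, single arrays included. Over the 13 other ways of processing both arrays, means ran from -1.29 to -1.17 for Dll1, 0.98 to 1.05 for Nrarp and 0.60 to 0.72 for Hey1, with limma adjusted p of 0.073 to 0.663, 0.135 to 0.852 and 0.300 to 1.0. None of the 10 genes reached an adjusted p under 0.05 in any setting. Fitting the channels without the replicate block, that is without the pairing on an array, gave adjusted p of 0.079 for Dll1 and 0.135 for Nrarp. The mean of Notch1 turned to -0.022 with processed signals and -0.042 with the authors' values, and single arrays gave -0.10 to 0.16 for Notch1, -0.27 to 0.068 for Hes1 and -0.62 to 0.34 for Hey2. The count of the 10 genes past the rule was 2 to 4 on single arrays. At a 2-fold threshold on both arrays it was 0 in the fit reported, where Dll1 was at 1.94-fold on array 1. With scale normalization it was 1 at 2-fold. The share of all features past 2-fold is not given here. For the other pathway genes the count of 1 became 0 with median centring and at 2-fold, 2 with scale normalization, 2 with spot medians, and 1 to 7 on single arrays. Over all features the rule passed 210 higher and 278 lower, 389 and 464 with processed signals, 491 and 470 on array 1 alone and 1373 and 1258 on array 2 alone. At an adjusted p under 0.05, where the fit reported had 0 features, 141 passed with a trended, robust variance, 114 with median centring, 97 with a filter on both channels, 54 with spot medians, 44 without the pairing, 35 without background correction and 23 with outlier spots kept. Only 1 residual degree of freedom per feature limits the test, and the causes of these changes were not tested.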
